A study of Mus musculus with 6 samples.

Results

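The 43 imprinted genes examined here were chosen by name, as well-known genes of imprinted clusters of the mouse, and were matched to loci by the gene names in the deposited files. They come from 19 clusters; 20 are known as expressed from the maternal allele and 23 from the paternal allele. A locus with their name was found for 40 of the 43, against 36812 named loci kept in all. Rian, Mirg and Kcnq1ot1 had no locus of their name. RNA came from mouse embryonic fibroblasts (MEFs), primary cells grown out of embryos, of C57BL/6 background. The libraries compared were 3 from STC1+/+ (wild-type) cells and 3 from STC1-/- (knockout) cells, which lack Stc1, the gene of the secreted glycoprotein stanniocalcin-1. Both genotypes were grown in the same medium with 10% fetal calf serum, and no treatment or embryo age is given. It is not stated whether each library had its own embryo or culture, and p-values therefore describe the scatter of these 6 libraries, which may be technical. Such RNA libraries report both parental alleles together, and the allele named for each gene is background knowledge, not a measurement. Whether each gene was expressed from a single allele in these cells was not measured, and the allele classes below rest on that background.

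Imprinted genes are expressed mainly from the copy inherited from one parent. At imprinting control regions the copy from one parent carries DNA methylation, which is laid down in egg or sperm and copied through cell divisions. A single control region often sets several neighbouring genes in opposite parental directions. Many imprinted genes act on growth of the embryo and placenta: Igf2 and Dlk1 are paternally expressed and promote growth or hold cells undifferentiated, while H19, Cdkn1c, Grb10 and Igf2r are maternally expressed and restrain it. Several of them are abundant in fetal mesoderm and in fibroblasts derived from it.

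Some maternally expressed noncoding RNAs of these clusters are hosts of microRNAs. The deposited H19 locus also carries the name Mir675, and the Meg3 locus the names Mir1906-1 and Mir770. Their mature sequences (RefSeq, GRCm38.p6) are shown because the reads at these loci are the only signal of these hosts here; poly(A) libraries do not measure the mature microRNAs. Capitals mark the seed, bases 2 to 8, and the 5 seeds differ from each other.
mmu-miR-675-5p: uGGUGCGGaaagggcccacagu
mmu-miR-675-3p: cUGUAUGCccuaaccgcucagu
mmu-miR-770-5p: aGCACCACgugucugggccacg
mmu-miR-770-3p: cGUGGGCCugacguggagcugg
mmu-miR-1906: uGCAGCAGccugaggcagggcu

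Promoters could be matched in the RefSeq table for 35 members, in 52 windows of 300 bases (250 before to 50 after the start). The hexamer TGCCGC, read on both strands, is the core bound by ZFP57, a zinc finger protein that keeps imprinted methylation in the early embryo. It was present in 13 of the 52 windows (25.0%), against 11.6% of all 32851 windows. The 12 genes with it were Zdbf2, Mcts2, Nnat, Mest, Copg2, Zim1, Snrpn, Plagl1, Grb10, Commd1, Meg3 and Slc22a2; 2 of the Mest windows are nearly the same sequence. A core of the YY1 motif, GCCATNTT on both strands, was in 2 windows (3.85%), against 6.05% of all. The median number of CpG dinucleotides was 12.5 per window for the members and 7 for all windows, with 17 for maternally and 10 for paternally expressed members. These are matches of letters, not measured binding, and no methylation was measured. The 250 bases before the start of Meg3, Mest and Plagl1 are printed as examples of members with the hexamer, to show where it stands; TGCCGC or its complement GCGGCA is in capitals.
Meg3 promoter, chr12:109540746-109540995, plus strand: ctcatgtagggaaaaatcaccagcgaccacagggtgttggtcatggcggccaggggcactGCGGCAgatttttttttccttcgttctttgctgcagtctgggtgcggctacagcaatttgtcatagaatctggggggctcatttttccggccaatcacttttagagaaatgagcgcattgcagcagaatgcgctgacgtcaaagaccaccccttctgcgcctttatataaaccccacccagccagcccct
Mest promoter, chr6:30737803-30738052, plus strand: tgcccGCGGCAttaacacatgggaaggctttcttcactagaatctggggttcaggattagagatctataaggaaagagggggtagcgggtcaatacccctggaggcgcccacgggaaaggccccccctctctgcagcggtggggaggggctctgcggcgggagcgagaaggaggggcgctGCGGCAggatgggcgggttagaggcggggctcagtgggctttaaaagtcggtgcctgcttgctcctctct
Plagl1 promoter, chr10:13090582-13090831, plus strand: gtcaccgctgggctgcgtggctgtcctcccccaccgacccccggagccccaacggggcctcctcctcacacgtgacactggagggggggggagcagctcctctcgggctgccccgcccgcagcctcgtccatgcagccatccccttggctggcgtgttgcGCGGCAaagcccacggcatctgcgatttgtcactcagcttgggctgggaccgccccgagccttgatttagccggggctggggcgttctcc

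The 6 libraries held 21882092 to 71488701 estimated fragments. Stc1 was measured at 6.82 to 31.8 CPM (fragment counts normalised to library size) in the wild-type libraries and at 0 to 0.282 CPM in the knockout libraries, where the 2 counts of 0 allow up to 0.0805 and 0.0666 CPM (3 counts, counting error only). All 10 fibroblast markers had a locus, and none was under 1 CPM in all libraries. Wild-type replicates 2 and 3 stood apart. Wild-type replicate 2 had the highest summed fibroblast markers (31722 CPM against 4749 to 11819 in the other 5) and the highest summed proliferation markers (1165 CPM against 194 to 383). Wild-type replicate 3 had the highest summed macrophage markers, of which 10 of 12 had a locus and none was at 0 in all libraries: 9304 CPM, against 392 and 1343 in the other wild-type libraries and 447 to 911 in the knockout libraries. It also had the highest summed adipocyte markers, 1517 CPM against 36.5 to 329, with 2 of the 7 under 1 CPM in every library. Whether fat cells were present was not tested. In RNA from a whole culture, fewer cells of a type and less RNA per cell cannot be told apart.

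No imprinted gene passed the test of knockout against wild type. Of the 40 genes with a locus, 35 had enough fragments to be tested. In edgeR's quasi-likelihood test with Benjamini-Hochberg adjustment over all 15673 tested loci, 0 of the 35 passed an adjusted p of 0.05, and the lowest adjusted p was 0.763. The background is the same: 0% of all loci passed. Stc1 itself did not pass edgeR's test, with a log2 fold change of -7.72 (unadjusted p 0.00313, adjusted p 0.763). At an unadjusted p under 0.05 the count was also 0 of 35, where 3.87% of all loci lay (1.6% higher and 2.27% lower in knockout). DESeq2 also called 0 members, while it called 61 loci, 0.322% of those with an adjusted p. The fitted difference (log2 fold change, knockout over wild type) was above 0 for 19 members and below 0 for 16, and its median was 0.08, against -0.05 over all tested loci. It was -0.01 over 15 maternally expressed members (7 higher, 8 lower) and 0.12 over 20 paternally expressed members (12 higher, 8 lower). These medians are smaller than the spread of the same list between libraries of a genotype, which was 0.238 for all members (SD, log2). With wild-type replicate 1 left out, 9 members had an unadjusted p under 0.05 (Ascl2, H19, Impact, Mest, Nnat, Peg3, Phlda2, Sfmbt2 and Snrpn), beside 18.4% of all loci, and again 0 passed the adjusted threshold.

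**Figure D1:**
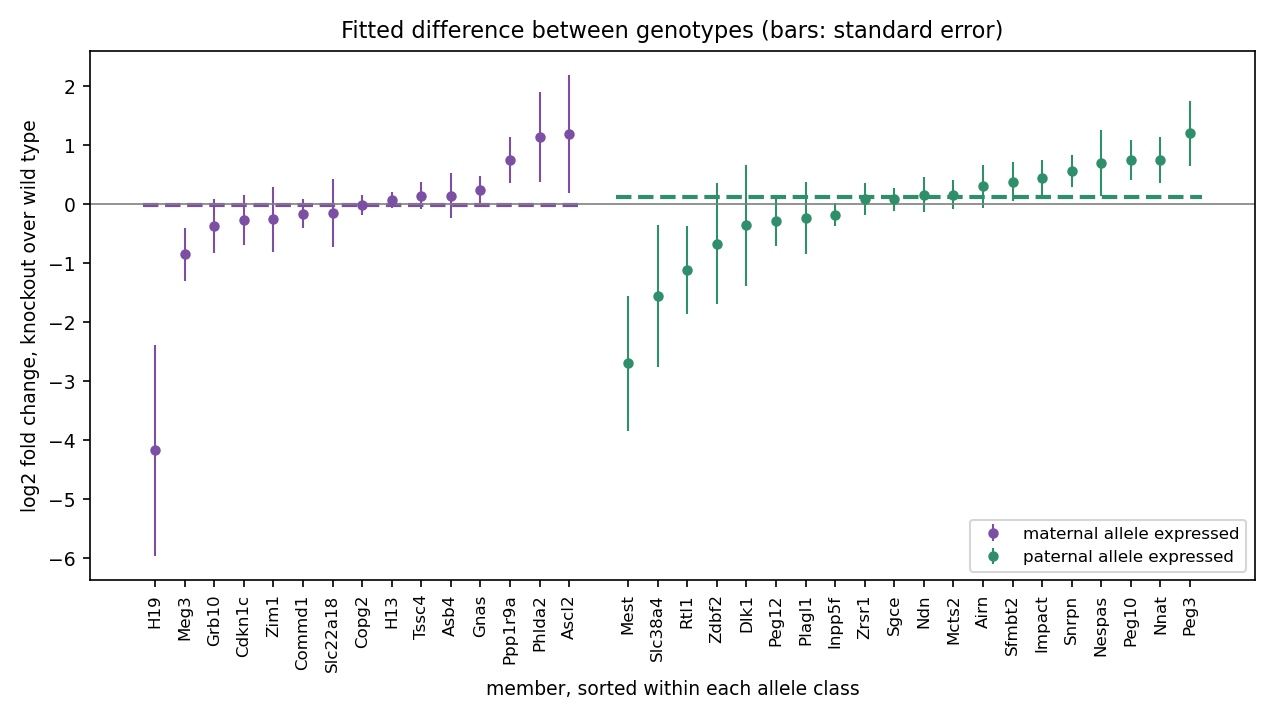
Fitted log2 fold change, knockout over wild type (vertical axis), for each tested imprinted gene (horizontal axis), with its standard error as a bar and the median of each allele class as a dashed line. Both medians (-0.01 and 0.12) lie near 0, and the estimates below -1 (H19, Mest, Slc38a4, Rtl1) have standard errors of 0.75 to 1.79.

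The members covered a wide range of levels. On the FPKM scale, which divides by length and allows genes to be compared, Gnas was the highest with 625 ± 143 in wild-type and 759 ± 58.0 in knockout libraries (SD, n = 3 each). It encodes the alpha subunit of the stimulatory G protein. The locus shared by Tssc4 and Cd81 followed at a mean of 375 FPKM over the 6 libraries, then H19 at 207, the Commd1 locus at 108, Meg3 at 98.5, H13 at 89.4, Grb10 at 74.9, Impact at 55.9 and Ndn at 50.6. In this order only the range of Gnas lay wholly above that of its next neighbour; for the other 33 of 34 neighbouring pairs the ranges over the 6 libraries overlapped. In all, 14 of the 35 tested members averaged 10 FPKM or more. At the other end Phlda2, which limits placental growth, averaged 0.45 FPKM and Rtl1, a retrotransposon-derived placental gene, 0.138.

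**Figure D2:**
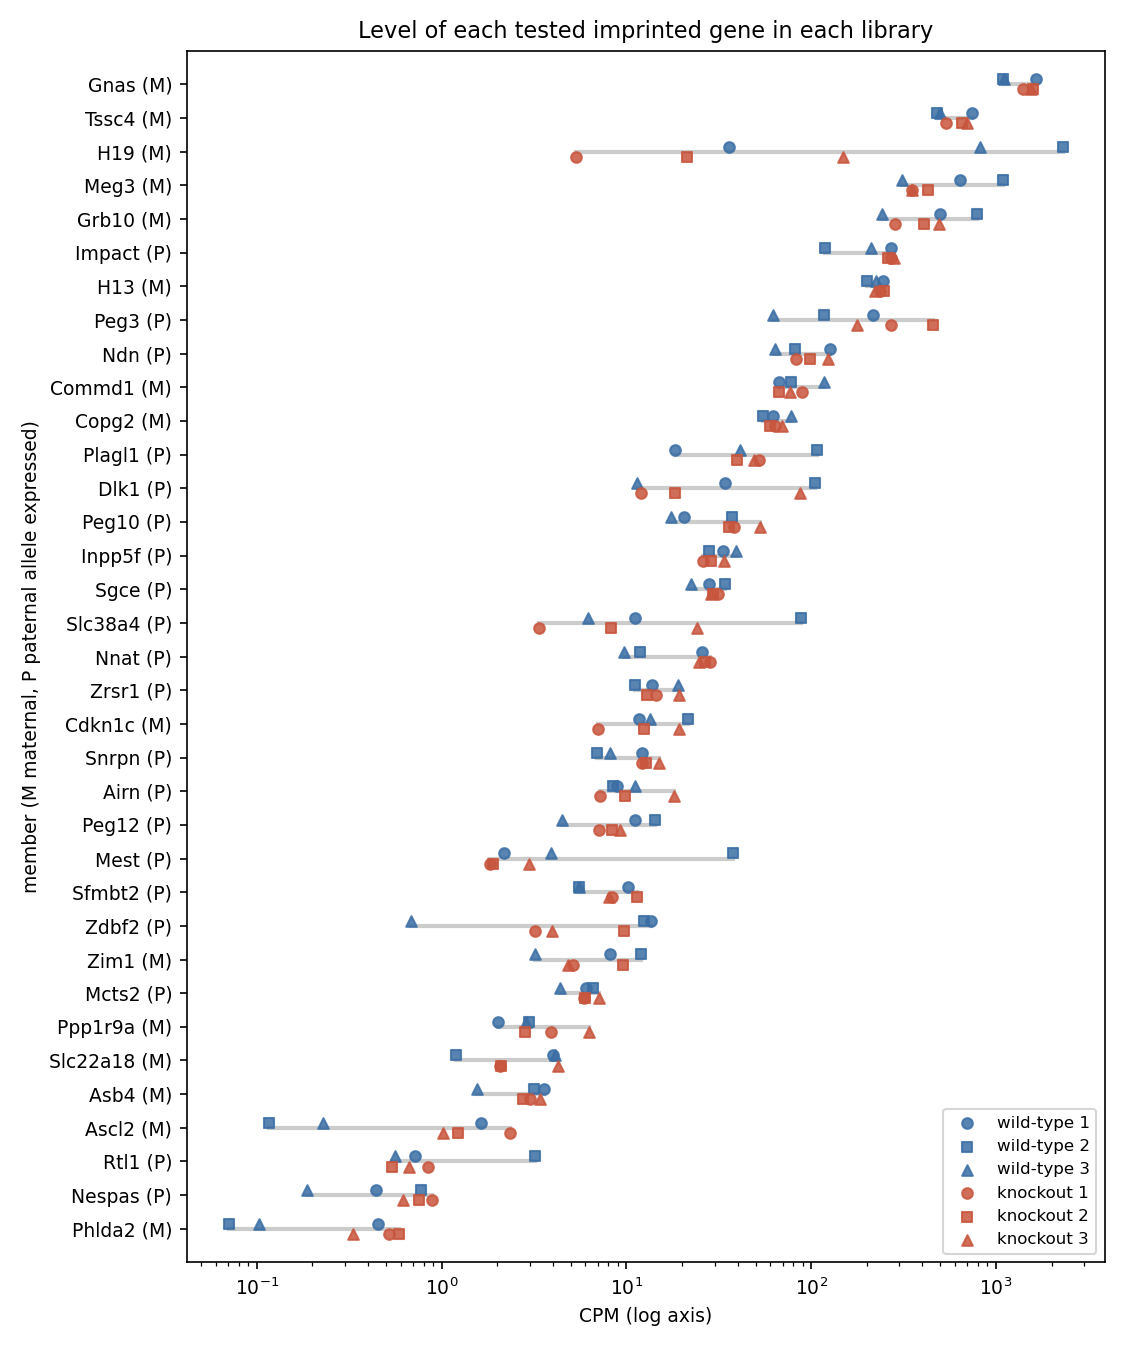
CPM (horizontal log axis) of each tested imprinted gene in each of the 6 libraries, sorted by mean, with a grey line from the lowest to the highest library. H19 spans 435-fold, whereas H13 and Gnas span little, and in 12 rows the highest point is wild-type replicate 2.

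H19, the maternally expressed untranslated RNA, varied most of all members. Its locus (chr7:142575529-142578143, minus strand, mm10) had 35.9, 2307 and 816 CPM in wild type and 5.31, 21.4 and 148 CPM in knockout (here and throughout in the order of replicates 1 to 3), a 435-fold range. The genotypes overlapped, since wild-type replicate 1 lay below knockout replicate 3. In edgeR's test the log2 fold change was -4.17 (SE 1.79, unadjusted p 0.0591). Leaving out wild-type replicate 2 gave -2.84, and leaving out knockout replicate 3 gave -6.29. The authors' estimate for H19 was marked as failed in wild-type replicate 3 and that of Igf2 in wild-type replicate 2.

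Igf2, the paternally expressed growth factor beside H19 and not among the 43, varied almost as widely, over 108-fold. It had 21.6, 1815 and 132 CPM in wild type and 16.8, 32.3 and 173 CPM in knockout, with a log2 fold change of -3.15 and an unadjusted p of 0.12 by edgeR. Without wild-type replicate 2 the log2 fold change of Igf2 was -0.02. Wild-type replicate 2 was the highest for both genes and knockout replicate 1 the lowest for both. The share of H19 in the summed FPKM of the pair separated the genotypes: it was 70.8%, 65.1% and 89.3% in wild type (75.1 ± 12.6, SD, n = 3) and 33.1%, 49.5% and 54.4% in knockout (45.7 ± 11.1, SD, n = 3). Counted in fragments it was 62.4%, 56.0% and 86.1% against 24.0%, 39.9% and 46.1%. No test was run on this share. The difference was -29.4 percentage points, and between -34.4 and -22.3 with any 1 library left out.

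In the Dlk1-Dio3 cluster the maternally expressed RNAs kept a nearly fixed ratio to each other. Meg3 (chr12:109541001-109571731, plus strand) had 642, 1089 and 309 CPM in wild type and 352, 428 and 351 CPM in knockout. The knockout libraries lay within the wild-type range (log2 fold change -0.85, SE 0.45, unadjusted p 0.107 by edgeR, with log2 fold changes from -1.2 to -0.32 over the alternatives). The locus that covers the RefSeq interval of Rian, a host of small nucleolar RNAs (chr12:109599818-109661709, plus strand, under other names in the files), had 242, 471 and 121 CPM against 143, 159 and 145 CPM. Its FPKM was 0.675, 0.773 and 0.642 times that of Meg3 in wild type and 0.654, 0.651 and 0.685 times in knockout, a 1.2-fold range. Among 15469 pairs of neighbouring tested loci in the genome, 0.679% had a ratio that stayed within 1.2-fold, and the median range was 3.16-fold. The 1.2-fold limit is the rounded range of Rian over Meg3 itself, which lay just above it before rounding. This share is therefore no test of that ratio, and the pairs were not matched for level. The locus over Mirg, a host of microRNAs, kept its ratio to Meg3 within 1.33-fold, at 5.28 to 22 CPM.

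Dlk1, the paternally expressed membrane protein that holds back fat cell differentiation, did not keep to this ratio. It had 34, 105 and 11.4 CPM in wild type and 12, 18.4 and 87.1 CPM in knockout, so that 1 library of each genotype was high. Its FPKM was 0.181, 0.361 and 0.127 times that of Meg3 in wild type and 0.109, 0.128 and 0.825 times in knockout, a 7.56-fold range. Rtl1 stayed at 0.536 to 3.19 CPM. Its locus is on the opposite strand and overlaps only the start of the locus that covers Rian, ending before the RefSeq interval of Rian. Meg3 held 84.6%, 73.3% and 88.6% of the summed FPKM of Meg3, Dlk1 and Rtl1 in wild type (82.2 ± 7.93, SD, n = 3) and 90.0%, 88.6% and 54.7% in knockout (77.8 ± 20.0, SD, n = 3). Dio3, the deiodinase gene at the far end of the cluster and not among the 43, was low, at 0.34 to 5.08 CPM in wild type and 0.51 to 0.939 CPM in knockout.

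**Figure D3:**
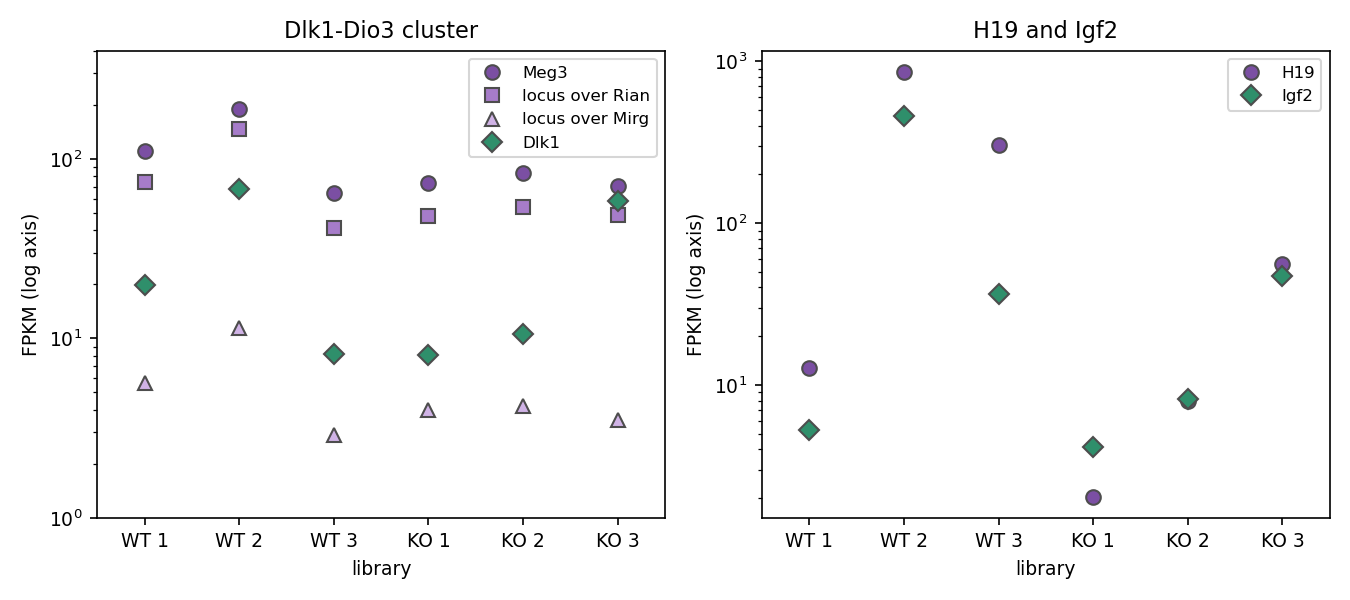
FPKM (vertical log axis) in each library (horizontal axis) for Meg3, the loci over Rian and Mirg, and Dlk1 (left) and for H19 and Igf2 (right). The 3 maternal RNAs on the left move in parallel while Dlk1 is high in WT 2 and KO 3; on the right H19 lies above Igf2 in the wild-type libraries and below it in KO 1 and KO 2.

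Among the genes that restrain growth through insulin-like signalling or the cell cycle, none passed the test. Grb10, an adaptor that inhibits insulin and IGF receptors, had 498, 794 and 241 CPM in wild type and 285, 406 and 494 CPM in knockout (log2 fold change -0.37). Its estimate was marked as failed in knockout replicate 1. Cdkn1c, the cyclin-dependent kinase inhibitor p57, had 11.7, 21.5 and 13.5 CPM against 7, 12.4 and 19.2 CPM. Plagl1, a zinc finger transcription factor, had 18.3, 107 and 41.4 CPM against 52.5, 39.8 and 48.8 CPM, with the knockout libraries close together inside the wild-type range. All of these were highest in wild-type replicate 2, and the sign of each log2 fold change turned when that library was left out (0.11 for Grb10, 0.05 for Cdkn1c and 0.67 for Plagl1).

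Airn, the paternally expressed antisense RNA that silences Igf2r on the same chromosome, had 8.95, 8.43 and 11.1 CPM in wild type and 7.19, 9.82 and 18 CPM in knockout. Its maternally expressed target Igf2r, the receptor that clears IGF2 and not among the 43, had 871, 722 and 771 CPM against 874, 978 and 1185 CPM. For Igf2r each knockout library lay above each wild-type library, at the closest by 874 to 871 CPM, and edgeR's unadjusted p was 0.106. The files do not state whether strand was used in counting, so reads of Airn and of the overlapping part of Igf2r cannot be told apart. Slc22a2 and Slc22a3, organic cation transporters of the same cluster, had at most 2 fragments in any library.

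In the Peg3 cluster both neighbours are zinc finger genes with opposite parental expression. Peg3, paternally expressed, had 215, 118 and 62.1 CPM in wild type and 269, 459 and 178 CPM in knockout. Knockout replicate 3 lay below wild-type replicate 1, so the groups overlapped, and edgeR gave a log2 fold change of 1.2 (SE 0.55, unadjusted p 0.0719, adjusted p 0.763, with log2 fold changes from 0.77 to 1.75 over the alternatives). Zim1, maternally expressed, ranged from 3.19 to 12.0 CPM. The FPKM of Zim1 was 0.0473, 0.12 and 0.0541 times that of Peg3 in wild type and 0.0214, 0.0239 and 0.0292 times in knockout, without overlap. The locus named Usp29 covers only a short stretch and held at most 13 fragments.

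Peg10 and Sgce share a promoter region and are both paternally expressed. Peg10, a retrotransposon-derived gene needed for the placenta, had 20.6, 37.3 and 17.5 CPM in wild type and 38.1, 35.8 and 52.7 CPM in knockout (log2 fold change 0.75, SE 0.34, edgeR's unadjusted p 0.068). Its groups overlapped only through wild-type replicate 2, and its estimate was marked as failed in all 6 libraries. Sgce, epsilon-sarcoglycan, was even across libraries, at 28, 34.3 and 22.3 CPM against 31.4, 29.6 and 28.6 CPM. The maternally expressed members of this cluster, Ppp1r9a (neurabin I) and Asb4, stayed between 1.55 and 6.30 CPM.

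Mest, named here after its values were seen, had the second-lowest fitted log2 fold change, and 1 library set it. This paternally expressed gene of mesoderm had 2.17, 37.8 and 3.93 CPM in wild type and 1.83, 1.90 and 2.97 CPM in knockout. The log2 fold change was -2.70 (SE 1.14, edgeR's unadjusted p 0.055) with all libraries and -0.42 without wild-type replicate 2. Copg2, a coatomer subunit gene that overlaps the end of Mest on the opposite strand, was even, at 62, 55.2 and 77.4 CPM against 63.6, 59.9 and 69.5 CPM. The ratio of their FPKM varied 27.4-fold.

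In the Kcnq1 cluster, the locus shared by Tssc4 and Cd81 had 739, 479 and 500 CPM in wild type and 540, 655 and 698 CPM in knockout; the gene behind these reads cannot be told apart. Apart from Cdkn1c, the rest of the cluster was low. Slc22a18 ranged from 1.19 to 4.28 CPM, and Kcnq1, a potassium channel gene, had at most 5 fragments. Ascl2, a transcription factor of trophoblast, had 1.63, 0.117 and 0.228 CPM in wild type and 2.35, 1.23 and 1.02 CPM in knockout, and Phlda2 had 0.453, 0.0703 and 0.103 CPM against 0.517, 0.59 and 0.333 CPM; both were named after their values were seen. For both genes wild-type replicates 2 and 3 were the low libraries. The summed level of the 8 trophoblast markers was also lowest in these 2 libraries: 5.39, 0.609 and 0.662 CPM in wild type against 3.24, 8.85 and 5.19 CPM in knockout, with 6 of the 8 under 1 CPM in every library. Whether trophoblast cells were present, and any part of them in the levels of Ascl2 and Phlda2, was not tested. Among the named loci kept, none on its strand covered Kcnq1ot1, the antisense RNA that silences this cluster. Loci without a name were not searched. The Kcnq1 locus spans its interval on the other strand.

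The Prader-Willi cluster is paternally expressed. Snrpn, whose locus is shared with Snurf and encodes a spliceosomal protein, was the 1 member of 35 whose genotypes did not overlap in CPM, where 10.6% of all tested loci did not overlap (5.18% above and 5.44% below in knockout). It had 12.1, 6.91 and 8.13 CPM in wild type and 12.2, 12.7 and 15 CPM in knockout, so wild-type replicate 1 and knockout replicate 1 were nearly equal. Its log2 fold change was 0.56 (SE 0.27, edgeR's unadjusted p 0.0818, adjusted p 0.763) and 0.99 with limma on log2(FPKM + 1). Ndn, necdin, a growth suppressor of neurons, had 127, 82 and 63.8 CPM against 82.5, 98.1 and 124 CPM. The FPKM of Snrpn was 0.18, 0.121 and 0.141 times that of Ndn in wild type and 0.304, 0.245 and 0.259 times in knockout. Peg12 ranged from 4.51 to 14.2 CPM, and Magel2 had at most 19 fragments.

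Of 14 ratios between loci of the same cluster, 3 did not overlap between genotypes: H19 over Igf2 and Zim1 over Peg3 were lower in every knockout library, and Snrpn over Ndn was higher. These ratios were chosen with values of these data known. Among all pairs of neighbouring tested loci in the genome, 10.6% did not overlap.

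**Figure D4:**
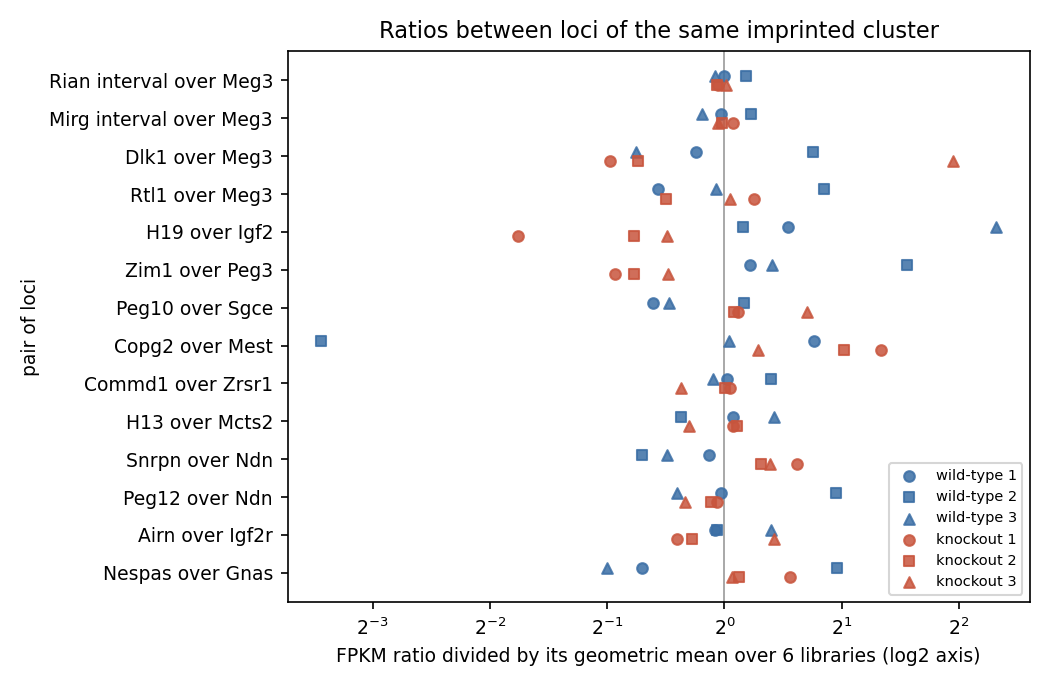
FPKM ratio of 2 loci of the same cluster in each library, divided by the geometric mean of that ratio over the 6 libraries (horizontal log2 axis), 1 row per pair. The ratios of the Rian and Mirg intervals to Meg3 vary 1.2-fold and 1.33-fold, while Copg2 over Mest varies 27.4-fold, with wild-type replicate 2 far from the other libraries.

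The remaining abundant members all overlapped between genotypes. H13, a signal peptide peptidase, was the most even of the members with a mean of at least 10 CPM, at 245, 201 and 225 CPM in wild type and 237, 247 and 222 CPM in knockout. Gnas had 1653, 1094 and 1102 CPM against 1400, 1591 and 1547 CPM (log2 fold change 0.24, SE 0.23). A second locus named Gnas (chr2:174321497-174324260) was low, at 0.71 to 2.15 CPM, and went the other way (log2 fold change -0.59, SE 0.48). Counts over members use the locus of Gnas with the most fragments. Impact, an inhibitor of the kinase GCN2, had 271, 119 and 210 CPM against 272, 262 and 281 CPM, with wild-type replicate 2 the low one. Commd1, in a locus shared with B3gnt2 and Gm12057, had 66.9, 78 and 117 CPM against 89.5, 67.3 and 76.5 CPM. Inpp5f, an inositol phosphatase, had 33.4, 28.1 and 39.2 CPM against 26.1, 28.8 and 33.9 CPM.

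Zrsr1, a splicing factor-like gene inside the Commd1 locus, had 13.7, 11.2 and 19 CPM in wild type and 14.4, 12.9 and 19.3 CPM in knockout. Nnat, neuronatin, a small membrane protein known from brain and fat, had 25.6, 11.8 and 9.71 CPM against 28.3, 26.5 and 24.6 CPM. Its knockout libraries were alike and wild-type replicate 1 was with them. The Nnat locus (chr2:157545030-157566796) lies within that of Blcap on the other strand. Since the strand setting is not known, reads of Nnat and Blcap cannot be told apart there. Slc38a4, an amino acid transporter abundant in placenta and liver, had 11.1, 88.6 and 6.19 CPM against 3.38, 8.21 and 24.2 CPM, and its log2 fold change went from -1.56 to 0.49 without wild-type replicate 2. The 13 tested members below 10 CPM averaged 0.344 to 9.09 CPM; 7 were higher and 6 lower in knockout, with log2 fold changes from -2.70 to 1.19. The 5 members with too few fragments to test (Magel2, Usp29, Kcnq1, Slc22a3 and Slc22a2) reached at most 0.269 CPM.

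The members varied widely between libraries, and no test was run on this spread. The highest library was at least 4-fold the lowest for 11 of 35 members (31.4%), against 23.6% of all tested loci; these were 8 of 20 paternally and 3 of 15 maternally expressed members. The median range was 3.08-fold for the members and 2.05-fold for all loci. Most of it lay in wild type: 32 of 35 members varied more among wild-type than among knockout libraries, as did 81.4% of all loci. The median range of the members was 2.31-fold among wild-type and 1.47-fold among knockout libraries, and that of all loci 1.77-fold and 1.28-fold.

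Wild-type replicate 2 was the highest library for 12 members, and it was the highest for 27.3% of all loci. The 12 were H19, Meg3, Grb10, Plagl1, Dlk1, Sgce, Slc38a4, Cdkn1c, Peg12, Mest, Zim1 and Rtl1. Wild-type replicate 3 was the lowest for 15 members, and it was the lowest for 25% of all loci. Without wild-type replicate 2, 26 of 35 members had a log2 fold change above 0 and the median was 0.19; without knockout replicate 3 it was 16 of 35 and -0.07. Without wild-type replicate 2, 8 members were at least 4-fold apart, beside 16.2% of all loci. Fibroblast and proliferation markers were highest in wild-type replicate 2 and macrophage markers in wild-type replicate 3, as given above; their part in these levels was not tested.

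Genes that set, keep or, as Tet1, Tet2 and Tet3, remove methylation were measured from a list of 17. Of the 15 tested, 0 passed the adjusted threshold of edgeR's test and 0 had an unadjusted p under 0.05. In knockout 1 (Dnmt3l) was higher and 14 were lower, Tet1, Tet2 and Tet3 among them, with a median log2 fold change of -0.30. Of all 15673 tested loci 8712 were lower, with a median of -0.05. The list's own spread between libraries of a genotype was 0.25 (SD, log2). Estimates were marked as failed in 3 libraries for Dnmt3a, in 1 for Tet2 and in 4 for Tet3. Without wild-type replicate 2 the median of the list was -0.15, and 11 of 15 were lower. Dnmt1, the methyltransferase that copies methylation, had 151, 249 and 129 CPM in wild type and 135, 129 and 114 CPM in knockout. Its partner Uhrf1 had 37.2, 85.1 and 20.7 CPM against 29.7, 29.7 and 26.8 CPM. In both, wild-type replicate 2 was the high library and the knockout libraries were even.

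Zfp57 had 18.5, 39.7 and 5.94 CPM in wild type and 18.3, 17.6 and 18 CPM in knockout. Trim28, the corepressor it recruits, had 239, 361 and 195 CPM against 237, 238 and 256 CPM. Ctcf, which binds the unmethylated maternal control region between H19 and Igf2, had 52.6, 96 and 75 CPM against 60.2, 56.4 and 54.5 CPM. Smchd1 had 78.1, 126 and 81.2 CPM against 71.4, 72.2 and 68 CPM, at an unadjusted p of 0.0912 by edgeR. It was the 1 of 15 whose groups did not overlap, and was named for that after its values were seen. Over all tested loci 5.44% lay below in this way.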

How the data were processed

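Poly(A) RNA of 3 wild-type and 3 Stc1 knockout MEF libraries was prepared with a stranded kit, per the labels' protocols. The submitters' processing notes name CASAVA 1.8.2, TopHat2 2.0.6, Cuffdiff 2.0.1 and build mm10; the gene models and the strand setting are not given in sources used here. Per the file headers, the authors deposited estimated counts of fragments and FPKM per locus and library, and a comparison table with log2 fold changes, p-values and q-values. About 24% of counts above 0 are not whole (24.0% to 24.6% by library), so they were rounded. Of 39495 loci, 2667 without a name (0.507% to 0.555% of fragments) and 16 marked HIDATA were left out; loci marked FAIL were kept. Genes with a common locus cannot be separated.

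The test of counts was edgeR's (version 4.0.16, under R 4.3.3), with filterByExpr, TMM scaling and a robust quasi-likelihood fit; the biological coefficient of variation was 0.467. CPM use TMM library sizes. The alternatives tried were DESeq2 1.42.0, limma-voom, limma 3.58.1 on log2 FPKM with a pseudocount of 1 or 0.1, RLE scaling, a filter of 1 CPM in 3 libraries, no filter, and leaving out each library; fits without FAIL loci and the H19 share by fragments were added after seeing the data. The fit was tested on simulated data. Named with all values are members of at least 10 CPM on average or with groups that do not overlap. Members and lists were chosen with earlier results of these data known. Promoter and microRNA sequences are from RefSeq (GRCm38.p6).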

Additional observations from a re-analysis of the deposited data

How the results depend on the processing

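No adjusted p of a member was under 0.05 in any fit; the lowest over all alternatives was 0.117, for Nnat, without wild-type replicate 1. The number of loci called over the genome was 0 in edgeR's test and under all alternatives except DESeq2, which called 61, and limma on log2(FPKM + 0.1), which called 1; the cause was not tested. The medians over members, over each allele class and over the methylation genes moved by less than the spread between libraries. Of 484 values of single members under alternatives, 453 kept their direction and 31 turned it, in 16 members. Copg2, at -0.01, gave 0.0 with at least 1 CPM in 3 libraries and with limma-voom, and 0.07 with limma on either FPKM scale. Plagl1, at -0.24, gave 0.14 with limma-voom, 0.08 with limma on log2(FPKM + 1) and 0.13 on log2(FPKM + 0.1). With 1 library left out, the log2 fold changes that turned ran from -0.15 to 0.56 for Airn, from -0.14 to 0.37 for Asb4, from -0.68 to 0.05 for Cdkn1c, from -0.32 to 0.1 for Commd1, from -0.1 to 0.13 for Copg2, from -1.72 to 0.81 for Dlk1, from -0.71 to 0.11 for Grb10, from -0.04 to 0.48 for Ndn, from -0.62 to 0.08 for Peg12, from -0.66 to 0.67 for Plagl1, from -1.52 to 0.09 for Rtl1, from -0.06 to 0.26 for Sgce, from -0.58 to 0.11 for Slc22a18, from -2.6 to 0.49 for Slc38a4, from -0.65 to 0.21 for Zim1 and from -0.1 to 0.31 for Zrsr1. Fewer libraries are the construction of these fits. No paired analysis was possible because the labels give no replicate numbers shared by the genotypes: the numbers used here only name the libraries, and no code in the titles recurs in both genotypes. With 3 libraries a genotype and this spread, even Stc1, which the knockout cells lack, did not pass edgeR's test (log2 fold change -7.72). A count of 0 members in that test therefore says little about differences of this size or smaller. The difference of H19 (-4.17) did not pass it either, and genes at a few fragments cannot be compared. Under the alternatives Stc1 passed in at least 1 fit, DESeq2 or limma on log2(FPKM + 0.1), and both of these called 0 members.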

Other observations

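A further list of 27 imprinted genes outside the 43 likewise gave no call. Its Cd81 has the locus already counted as the member Tssc4. Of the 26 with a locus, 21 were tested, 0 passed the adjusted threshold of edgeR's quasi-likelihood test and 0 had an unadjusted p under 0.05; 10 were higher and 11 lower in knockout, and the median log2 fold change was -0.01. In 4 of them each knockout library lay above each wild-type library: Igf2r, Nap1l4, Blcap and Mkrn3, named after their values were seen. Over all tested loci 5.18% were above in this way, and of the 35 tested members 1 was. Blcap, whose locus also carries Gm14286 and whose intron holds the member Nnat, had 110, 56.8 and 66 CPM in wild type and 112, 114 and 116 CPM in knockout. Mkrn3, a paternally expressed gene of the Prader-Willi cluster, had 1.02, 0.867 and 0.559 CPM against 1.5, 1.37 and 1.44 CPM.

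The authors' deposited table lists 24 of the members and gives a test for 18 of them. H19, Grb10, Snrpn and Nnat are among the members it does not list, and Peg10 is marked as failed. By the authors' deposited table none of these (0 of 18) had a q-value under 0.05, where 17 of 8799 tested genes had one, and the lowest p-value of a member was 0.122, for Peg3.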
